A study of Mus musculus with 6 samples.

Results

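The 10 immediate early genes Fos, Fosb, Jun, Junb, Egr1, Egr2, Ier2, Nr4a1, Arc and Btg2 were examined in optic nerves after optic nerve crush (ON-CR) or sham surgery. The members were listed by gene symbol, with earlier results of these data known, and all 10 were found among the 25755 genes of the expression table. After ON-CR, Fos and Egr2 were 4.18-fold and 4.10-fold higher than in sham nerves, Junb was 3.23-fold higher and Egr1 was 2.31-fold higher. Jun, Ier2, Nr4a1, Fosb and Btg2 did not pass the test, and Arc lay lower in every ON-CR mouse without passing it.

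The samples were whole optic nerves of 6 NF1flox/flox;hGFAP-Cre mice, in which the human GFAP promoter drives Cre in neuroglial progenitors, so that these cells and their progeny lose Nf1 while other cells of the nerve keep it. Both groups carried this deletion. Sham mice 1 to 3 had the surgical incision without a crush and ON-CR mice 4 to 6 had both nerves crushed, each at 6 weeks of age, and the nerves were taken at 12 weeks, which the sample labels give as 3 months. No wild-type nerves were sequenced in this comparison, and it holds a single time point, 6 weeks after surgery.

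Immediate early genes are transcribed within minutes of a stimulus, without new protein synthesis, by factors such as SRF with its ELK partners and CREB that are already in the cell. MAP kinase and calcium signals reach those factors. Many of the products are transcription factors that switch on a later set of genes, and most of their mRNAs are short-lived, which is why they are widely used as markers of recent activity in neurons, glia and immune cells. Members of the FOS and JUN families pair with each other to form AP-1, and EGR proteins bind GC-rich DNA through zinc fingers.

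Values are gene counts that the authors scaled by median normalization, so 1 read was worth between 0.885 and 1.06 units and the libraries held 17413131 to 23619620 estimated reads on genes. Fold changes are on the scale of log2(value + 1), tests are limma with Benjamini-Hochberg adjustment over all 25755 genes, and a gene was called at an adjusted p at or under 0.05. Within a group, pairs of libraries differed beyond counting noise (chi-square divided by its degrees of freedom, 16.5 to 47.2). Values across mice are in the order of the mouse numbers throughout. Nf1 itself lay at 364, 447 and 343 across sham mice 1 to 3 and at 416, 438 and 380.0 across ON-CR mice 4 to 6 (log2 fold change 0.10, limma adjusted p = 0.798), which checks no label because both groups carry the deletion. Xist, the RNA of the inactive X chromosome, ranged from 2.14 to 30.9 in sham and from 2708 to 6357 in ON-CR nerves, and the Y-linked Ddx3y was at 1291 to 1645 in sham mice and at 976, 4.19 and 0 across ON-CR mice 4 to 6. The library of ON-CR mouse 4 thus held both transcripts, with Xist at 2708, and is counted as 1 mouse as labelled. The paper's RNA extraction methods describe more than 1 mouse per sample, without saying whether this covers the sequenced libraries. Sex and surgery cannot be told apart in any comparison of these nerves. Some libraries also stood apart from their group. Summed neuronal markers reached 13361 in ON-CR mouse 5 against 1912 to 5933 in the other mice, summed B-cell and plasma cell markers reached 97531 in ON-CR mouse 6 against 369 to 2390, and airway epithelial markers summed to 5349 to 7815 in sham mouse 3 and ON-CR mice 5 and 6 against 0.997 to 29.7 in the rest. The calls of the members, of other named genes and of the marker lists are therefore set beside the fits with each mouse left out.

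To show the DNA in front of the members that the results turn on, the 250 bases before a transcription start are given for Fos, Junb and Egr2, whose mRNA rose, and for Jun, whose mRNA did not pass the test. The sequences are from RefSeq, assembly GRCm38.p6. The set of promoters used here covered 7 of the 10 members, without Egr1, Ier2 and Arc. None of the 4 windows overlaps an annotated exon. Each is written 5′ to 3′ on the strand of the gene and ends at the base before the start. Capitals mark matches to the CArG box bound by SRF, the cAMP response half-site TGACG or its reverse CGTCA, and TATAA.
Fos, chr12:85473640-85473889, plus strand: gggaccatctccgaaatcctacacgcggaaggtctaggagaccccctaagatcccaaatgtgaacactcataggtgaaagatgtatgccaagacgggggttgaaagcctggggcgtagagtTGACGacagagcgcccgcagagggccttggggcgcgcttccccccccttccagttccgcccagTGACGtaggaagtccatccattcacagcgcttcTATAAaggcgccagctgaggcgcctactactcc
Junb, chr8:84978749-84978998, minus strand: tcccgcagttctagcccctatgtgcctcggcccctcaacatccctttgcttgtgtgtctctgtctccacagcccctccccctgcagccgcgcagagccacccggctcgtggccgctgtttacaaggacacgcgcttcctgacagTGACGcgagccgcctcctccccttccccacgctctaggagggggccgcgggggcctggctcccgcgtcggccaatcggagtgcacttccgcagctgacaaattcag
Egr2, chr10:67537619-67537868, plus strand: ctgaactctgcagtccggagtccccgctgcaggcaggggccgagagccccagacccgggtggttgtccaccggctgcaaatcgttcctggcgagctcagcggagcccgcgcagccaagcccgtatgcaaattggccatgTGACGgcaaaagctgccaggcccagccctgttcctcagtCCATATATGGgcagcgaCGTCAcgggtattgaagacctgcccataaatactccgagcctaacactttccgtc
Jun, chr4:95052223-95052472, minus strand: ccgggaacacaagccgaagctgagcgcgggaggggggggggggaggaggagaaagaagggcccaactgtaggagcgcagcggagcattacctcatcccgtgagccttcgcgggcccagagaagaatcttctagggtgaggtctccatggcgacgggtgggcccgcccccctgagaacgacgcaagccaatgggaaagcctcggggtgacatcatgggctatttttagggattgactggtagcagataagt

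The searched motifs were the CArG box, the full cAMP response element TGACGTCA, its half-site TGACG, the AP-1 site TGANTCA and the EGR site GCGNGGGCG on both strands, and TATAA on the strand of the gene. A match is counted from its first letter, with -1 as the base before the start. The Fos window held TGACG at -129 and -66 and TATAA at -33, and the Junb window held TGACG at -106. The Egr2 window held a CArG box, CCATATATGG, at -72 between half-sites at -111 and -55. RefSeq lists 5 starts for Egr2, and 4 of the 5 windows hold a CArG box, some of them the same box, because these windows overlap. The Jun window held no exact match to any of the 6 motifs. Near matches, such as its tgacatca beside TGACGTCA, were not counted, so the window is not shown to lack related sites. Among 32851 windows of the same length over all genes, 1.47% held a CArG box, 17.8% held TGACG, 1.55% held the full TGACGTCA, 6.75% held TGANTCA, 4.70% held GCGNGGGCG and 16.0% held TATAA. Of the members shown by name only, Btg2 held the full TGACGTCA at -166, which contains the half-site on both strands, and an EGR site at -131. Fosb held TGACG at -60 and an EGR site at -50, and Nr4a1 held TGACG 4 times, with the nearest at -40, and an EGR site at -60. These are exact matches of letters within 250 bases before a start, and bases farther upstream were not searched. A motif absent from a window, such as the CArG box in that of Fos, may therefore lie outside it. Factor binding was not measured in these nerves.

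Of the 10 members, 4 were called higher and 0 lower, whereas 0.971% of all genes were called higher and 1.13% lower. The share called higher was 1.5% among the 14291 genes with a mean at or above that of Egr2, the lowest of the 4. At an unadjusted p under 0.05, 5 members were higher and 1 was lower, beside 7.37% and 8.22% of all genes. Voom also called 4 members higher and 0 lower, beside 1.34% and 1.47% of all genes. The median log2 fold change of the members was 0.38, and that of all genes was 0.03. In 4 members every ON-CR mouse lay above every sham mouse, as in 10.5% of all genes, and in 1 member, Arc, every ON-CR mouse lay below, as in 11% of all genes. The study's methods filter on a p of at most 0.05 before adjustment together with a change of 2-fold or more. With limma p-values in place of the study's DESeq2, the same 4 members passed it, all higher, against 3.17% of all genes in that direction and 4.66% in either. For its pathways the study's results section states a stricter filter, with a log fold change of at least 5. No member reached that, the largest log2 fold change being 2.06 for Fos. Groups did not overlap in either direction in 5 members and in 21.6% of all genes, and the fold change was above 0 in 6 members and in 52.8% of all genes.

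**Figure D1:**
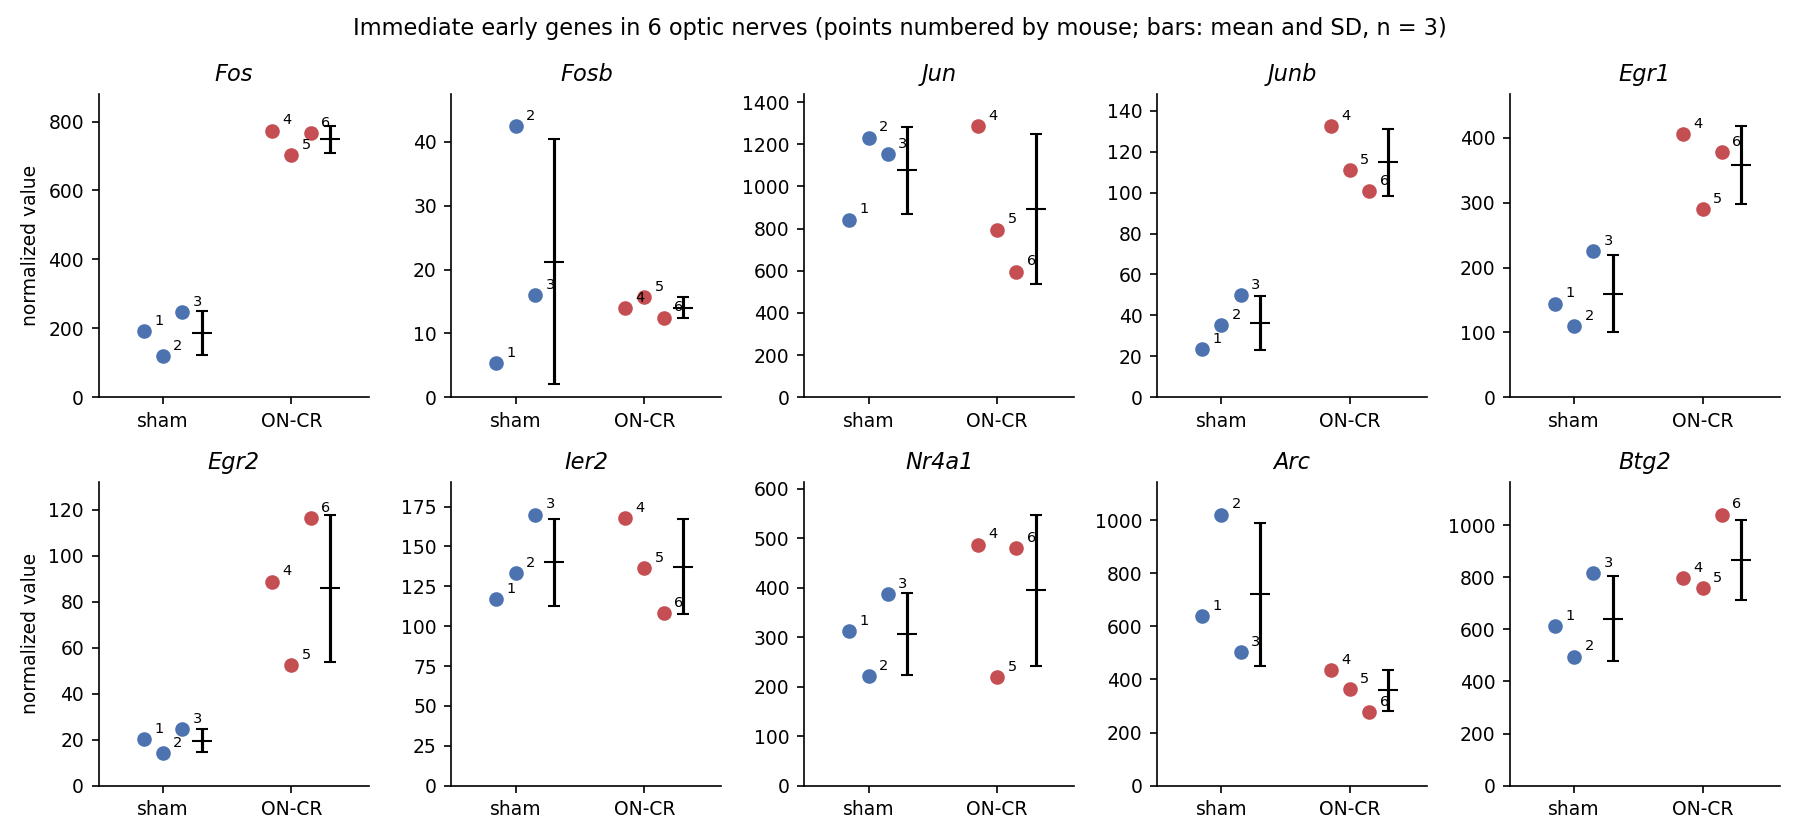
Normalized value of each of the 10 immediate early genes (y axis, linear, from 0) in sham mice 1 to 3 (blue) and ON-CR mice 4 to 6 (red), each point numbered by mouse, with a black bar for the mean and SD of each group (n = 3). The groups are separate for Fos, Junb, Egr1 and Egr2, which were higher after ON-CR, and for Arc, which was lower, and they overlap for Fosb, Jun, Ier2, Nr4a1 and Btg2.

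Fos encodes the founding FOS family subunit of AP-1, which cannot pair with itself and needs a JUN partner. It lies at chr12:85473890-85477273 (GRCm38, plus strand). Its normalized value was 191, 120 and 247 across sham mice 1 to 3 and 774, 703 and 767 across ON-CR mice 4 to 6. The ON-CR mice were thus close together and all far above the highest sham mouse, and the means were 186 ± 63.9 and 748 ± 38.9 (SD, n = 3 each). Fos rose by a log2 fold change of 2.06 (SE 0.23, 95% confidence interval 1.55 to 2.58, limma adjusted p = 0.00279), the lowest adjusted p of the 10 members. Without ON-CR mouse 6 its adjusted p was 0.0502, and with each of the other mice left out it stayed at or under 0.0183, with log2 fold changes of 1.78 to 2.30 over all 6 omissions.

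Junb, a JUN family subunit that pairs with FOS proteins, lies at chr8:84974484-84978718 on the minus strand. It was at 23.3, 35.4 and 49.8 across sham mice 1 to 3 and at 133, 111 and 100.7 across ON-CR mice 4 to 6. The lowest ON-CR mouse was above the highest sham mouse, and the means were 36.2 ± 13.2 and 115 ± 16.3. Junb rose by a log2 fold change of 1.69 (SE 0.31, 95% confidence interval 1.00 to 2.39, limma adjusted p = 0.0248). The call was lost without sham mouse 1, sham mouse 2, ON-CR mouse 4 or ON-CR mouse 6, where the adjusted p reached 0.0722 to 0.138. Junb shares 173 exonic bases with Prdx2 on the opposite strand, and the library kit did not mark strand, so reads from those bases cannot be told apart. Prdx2, a peroxiredoxin, was at 3926 ± 360 in sham and 3874 ± 161 in ON-CR nerves (log2 fold change -0.02, limma adjusted p = 0.964).

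Jun, the partner that can form AP-1 with FOS proteins or with itself, lies at chr4:95049034-95052222 on the minus strand. It was at 842, 1231 and 1153 across sham mice 1 to 3 and at 1286, 795 and 596 across ON-CR mice 4 to 6. The ON-CR group held both the highest and the 2 lowest values, and the means were 1076 ± 206 and 892 ± 355. Its log2 fold change was -0.32 (95% confidence interval -0.89 to 0.24, limma adjusted p = 0.589). This interval does not reach the fold changes of Fos or Junb, although the difference between the genes was not tested. Jun shares 232 exonic bases with the antisense gene Junos, whose values of 2.10 to 7.57 in every mouse were small beside those of Jun. Fosb, a second FOS family subunit known for its stable truncated form in chronically stimulated neurons, lies at chr7:19302696-19310051 on the minus strand and was the least abundant member per kilobase. Its value was 5.31, 42.5 and 16.0 across sham mice 1 to 3 and 14.0, 15.7 and 12.5 across ON-CR mice 4 to 6. These rest on 5 to 48 reads per library, and 1 sham mouse held both the highest value and most of the spread. The log2 fold change was -0.16 (95% confidence interval -1.59 to 1.28, limma adjusted p = 0.937), which leaves room for changes of more than 2-fold in both directions at this depth, and without sham mouse 2 the estimate was 0.54.

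**Figure D2:**
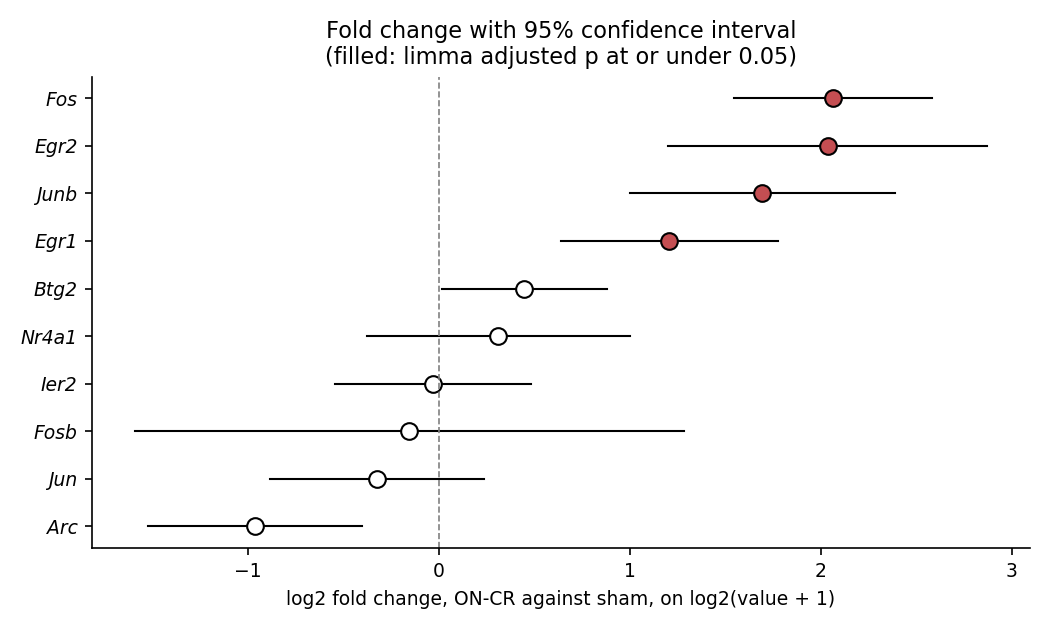
Log2 fold change of ON-CR against sham nerves (x axis, on log2(value + 1)) for the 10 members, ordered by size, with 95% confidence intervals from limma as lines and filled points for an adjusted p at or under 0.05. Fos, Egr2, Junb and Egr1 are filled, with fold changes of 2.06, 2.04, 1.69 and 1.21, and the interval of Arc (-1.53 to -0.40) lies below 0 although its point is open.

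Because FOS and JUN proteins share partners, the 4 AP-1 members were compared per kilobase of exon within each mouse. Of their summed level, Fos made up 22.8%, 11.1% and 21.4% across sham mice 1 to 3 and 41.5%, 49.9% and 58.4% across ON-CR mice 4 to 6. Jun made up 74.1%, 84.1% and 73.7% in the sham mice and 50.9%, 41.6% and 33.4% in the ON-CR mice. The groups were thus separate in both shares, with Jun the leading transcript of every sham nerve and Fos ahead of Jun in ON-CR mice 5 and 6 but not in mouse 4. Shares of a sum are not independent, since a rise of Fos lowers the share of Jun even where Jun is level. The share of Junb went from 3.54% ± 0.80 to 7.72% ± 0.40 (SD, n = 3 each), and Fosb made up at most 1.48% in any mouse. As a ratio of values, Fos to Jun was 0.227, 0.0971 and 0.214 in the sham mice and 0.602, 0.885 and 1.29 across ON-CR mice 4 to 6. Junb to Jun was 0.0277 to 0.0432 in sham and 0.103 to 0.169 in ON-CR nerves. By contrast, Junb to Fos overlapped between groups (0.207 ± 0.087 in sham and 0.154 ± 0.020 in ON-CR). No test was run on these shares and ratios, and they do not depend on how the libraries were scaled.

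**Figure D3:**
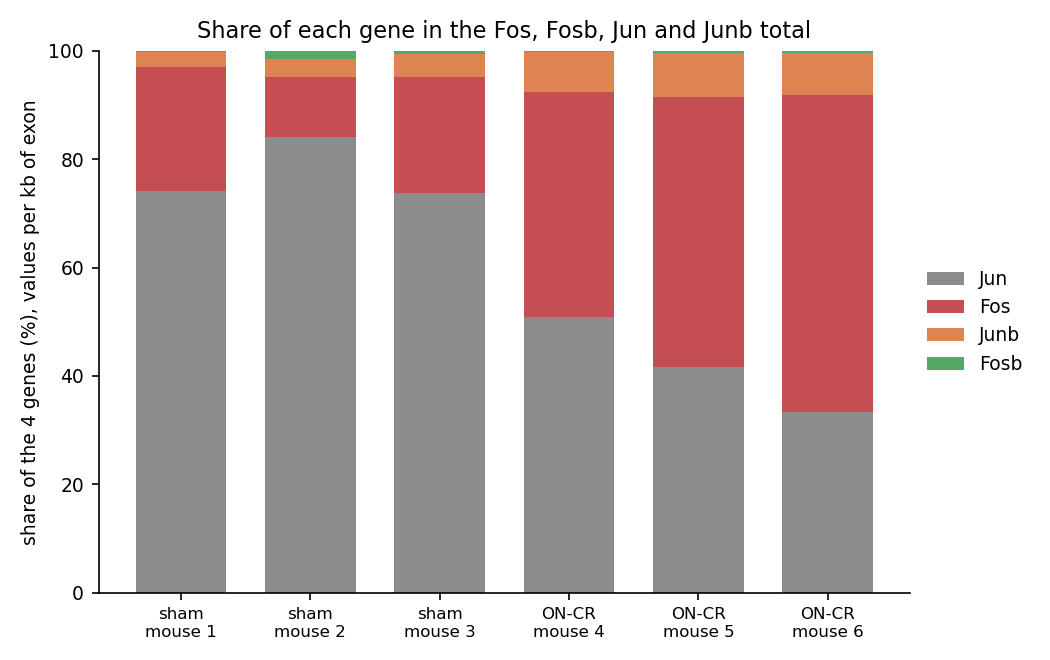
Share in percent (y axis) of Jun (grey), Fos (red), Junb (orange) and Fosb (green) in their summed level per kilobase of exon, as 1 stacked bar for each of the 6 mice. Jun makes up 73.7% to 84.1% of the bar in sham mice and 33.4% to 50.9% in ON-CR mice, and Fos 11.1% to 22.8% and 41.5% to 58.4%.

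Egr1 encodes a zinc-finger transcription factor induced by growth factors through SRF and ELK proteins, and lies at chr18:34859823-34864984 on the plus strand. It was at 144, 109.8 and 225 across sham mice 1 to 3 and at 406, 290.4 and 378 across ON-CR mice 4 to 6. All ON-CR mice were above all sham mice, with means of 159.8 ± 59.3 and 358 ± 60.2, and the nearest mice of the groups lay at 225 and 290.4. Egr1 rose by a log2 fold change of 1.21 (SE 0.26, 95% confidence interval 0.64 to 1.78, limma adjusted p = 0.0426). This was the call nearest to the threshold. It was lost without sham mouse 1, sham mouse 2, ON-CR mouse 4 or ON-CR mouse 6, with adjusted p from 0.106 to 0.231, and at a pseudocount of 0.1 the adjusted p was 0.0506.

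Egr2, also called Krox20, is known as the master regulator of myelination in Schwann cells and is also an activation gene of lymphocytes and macrophages. It lies at chr10:67535475-67542188 on the plus strand. Its value was 20.2, 14.2 and 24.4 across sham mice 1 to 3, from 19, 16 and 26 reads, and 88.7, 52.4 and 116 across ON-CR mice 4 to 6, from 89, 50 and 112 reads. The lowest ON-CR mouse was above the highest sham mouse, and the means were 19.6 ± 5.15 and 85.8 ± 32.0. Egr2 rose by a log2 fold change of 2.04 (SE 0.38, 95% confidence interval 1.20 to 2.87, limma adjusted p = 0.0250). With 1 mouse left out, the call held only without ON-CR mouse 5 (adjusted p = 0.00776) and otherwise lay between 0.0582 and 0.182, while the log2 fold change stayed between 1.78 and 2.35. The ratio of Egr2 to Egr1 was 0.140, 0.129 and 0.108 across sham mice 1 to 3 and 0.219, 0.181 and 0.308 across ON-CR mice 4 to 6, so that the groups did not overlap.

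Nr4a1 encodes an orphan nuclear receptor, also known as Nur77, and lies at chr15:101254269-101274795 on the plus strand. It was at 312, 222 and 387 across sham mice 1 to 3 and at 488, 219 and 479.7 across ON-CR mice 4 to 6. The overlap came from ON-CR mouse 5, the lowest of all 6 mice. The log2 fold change was 0.31 (95% confidence interval -0.38 to 1.00, limma adjusted p = 0.687). Btg2 encodes an antiproliferative cofactor that takes part in mRNA deadenylation, and lies at chr1:134075170-134079120 on the minus strand. It was at 611, 495 and 816 across sham mice 1 to 3 and at 796, 758 and 1040.4 across ON-CR mice 4 to 6. Here sham mouse 3 lay above ON-CR mice 4 and 5, and the log2 fold change of 0.45 (95% confidence interval 0.02 to 0.88, unadjusted p = 0.0429) did not pass after limma's adjustment (adjusted p = 0.300). Ier2, at chr8:84661331-84662852 on the minus strand, was at 117, 133 and 170.0 across sham mice 1 to 3 and at 168, 136 and 108 across ON-CR mice 4 to 6. Its groups covered nearly the same range, and its log2 fold change was -0.03 (95% confidence interval -0.55 to 0.48, limma adjusted p = 0.965), an interval that lies below the log2 fold changes of the 4 called members.

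Arc, whose mRNA travels into dendrites of active neurons and whose protein acts in the removal of AMPA receptors from synapses, lies at chr15:74669083-74672570 on the minus strand. Its value was 639, 1021 and 502 across sham mice 1 to 3 and 435, 363 and 278 across ON-CR mice 4 to 6. Every ON-CR mouse lay below every sham mouse, the reverse of Fos, and the means were 720.3 ± 269 and 359 ± 78.3. The log2 fold change was -0.96 (SE 0.25, 95% confidence interval -1.53 to -0.40, unadjusted p = 0.00333), with a limma adjusted p of 0.0891, and Arc was called under none of the 17 alternatives (adjusted p from 0.0784 to 0.341). Within each mouse, the ratio of Fos to Arc was 0.299, 0.117 and 0.493 across sham mice 1 to 3 and 1.78, 1.94 and 2.76 across ON-CR mice 4 to 6. Arc thus exceeded Fos in all sham nerves and Fos exceeded Arc in all ON-CR nerves, in values not divided by length.

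Ranked per kilobase of exon, Jun was the most abundant member in sham nerves at 337 ± 64.5 (SD, n = 3), followed by Arc at 236 ± 88.0 and Btg2 at 234 ± 59.3. In range, Jun overlapped Arc and Arc overlapped Btg2, while Btg2 was separate from the next gene, Ier2. Ier2 (91.9), Nr4a1 (87.5) and Fos (79.0) overlapped in turn. Below them Egr1 (35.6) and Junb (15.7) were each separate from their neighbours, and Egr2 (5.76) overlapped Fosb (3.40). Compared within each mouse, Jun lay above Arc and Nr4a1 above Fos in all 3 sham mice. Arc lay above Btg2 in 1 sham mouse, and Ier2 above Nr4a1 and Egr2 above Fosb in 2. In ON-CR nerves Fos was at 318 ± 16.5 and did not differ beyond the spread from Btg2 at 315 ± 55.9 or Btg2 from Jun at 280 ± 111. Arc (117), Nr4a1 (113), Ier2 (90.2) and Egr1 (79.9) came next with overlapping neighbours, and Junb (49.9), Egr2 (25.3) and Fosb (2.25) were each separate. Fos thus moved from the sixth position in the order to the first, while Fosb stayed last. Among the 6 mice, ON-CR mouse 4 held the highest value for 5 of the 10 members and the lowest for 0, whereas ON-CR mouse 6 held the highest for 2 and the lowest for 3, so the ON-CR mice did not differ by a common factor over the members.

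**Figure D4:**
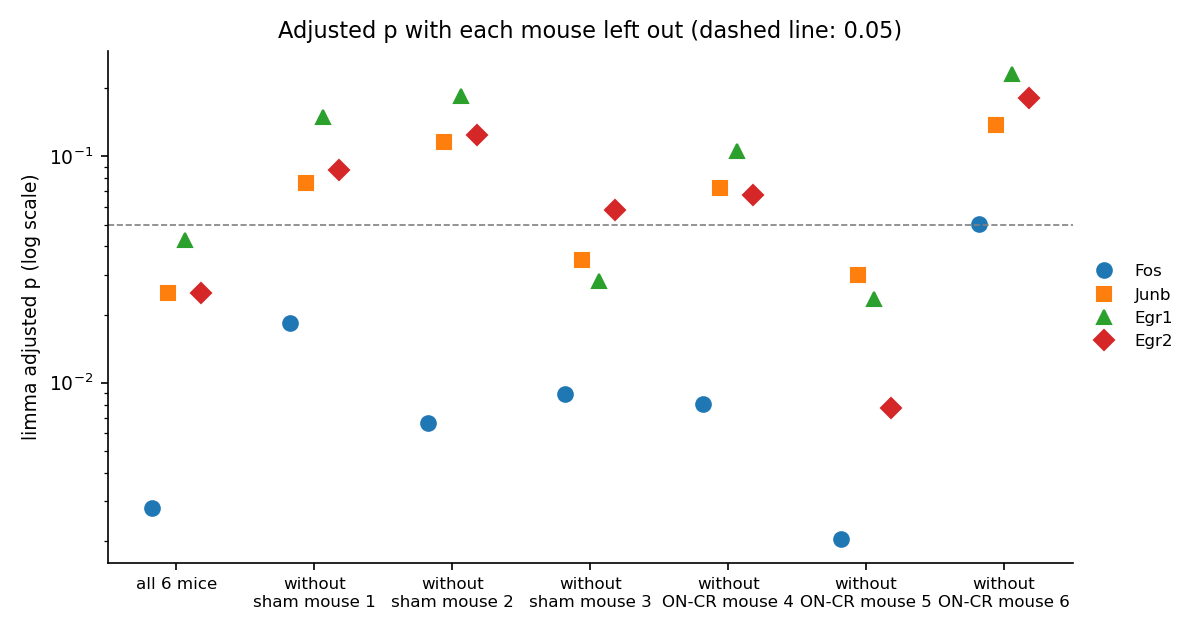
Limma adjusted p (y axis, log scale) of Fos (circles), Junb (squares), Egr1 (triangles) and Egr2 (diamonds) with all 6 mice and with each mouse left out (x axis), and a dashed line at 0.05. All 4 genes lie under the line with all mice and without ON-CR mouse 5, and none does without ON-CR mouse 6, where Fos is at 0.0502.

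Across the table, the genes whose pattern over the 6 mice was nearest to the mean of the 10 centred member profiles were Itga6, Lyst, Tle3, Bach1 and Ccnl1, chosen among 14427 genes with a mean of at least 50. Their root mean square differences from it were 0.0672, 0.0751, 0.0858, 0.0872 and 0.0876 on the log2 scale. Itga6, an integrin subunit of laminin receptors, went from 593, 716 and 785 across sham mice 1 to 3 to 1167, 992 and 1106 across ON-CR mice 4 to 6. The 5 genes had log2 fold changes of 0.60 to 0.65, which are a description, since the genes were chosen for this pattern and the members' mean profile itself differs between the groups.

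Relatives of the members and their regulators were then read from the same fit. Of 11 other AP-1 family genes, 1 was called higher and 0 lower. It was Atf3, a stress-induced factor well known in injured neurons, which went from 35.0, 46.0 and 47.0 across sham mice 1 to 3 to 183, 130.0 and 292 across ON-CR mice 4 to 6 (log2 fold change 2.15, SE 0.31, limma adjusted p = 0.00733). The groups did not overlap, and the call was lost without ON-CR mouse 6 (adjusted p = 0.0645). The median log2 fold change of these 11 genes was 0.71, or 0.50 with Fosl1, which had 0 reads in all sham mice, set at its floor of 3 reads. Of the 5 other EGR and NR4A family genes and NAB corepressors in the table, 0 were called by limma and 0 had an unadjusted p under 0.05. Nr4a2 differed by -0.32 on the log2 scale (adjusted p = 0.714) and Nab1 by -0.13 (adjusted p = 0.763), the largest differences among those with a mean of at least 50. The median of the 5 was -0.13.

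Of 32 other primary response genes, from Klf and Ier genes to Dusp1, Socs3 and Myc, 1 was called higher and 0 lower, and the median log2 fold change was 0.18. At an unadjusted p under 0.05, 8 were higher and 3 lower, and voom called 4 higher and 1 lower. The called gene was Ccn1, a secreted matricellular protein and a target of SRF and YAP, at 222, 262 and 424 across sham mice 1 to 3 and 1051, 546 and 1113 across ON-CR mice 4 to 6. Its ON-CR values were all above its sham values (log2 fold change 1.56, SE 0.30, limma adjusted p = 0.0274), and the call was lost without sham mouse 1 or 2 or ON-CR mouse 4 or 6, so that it held in 2 of the 6 fits with 1 mouse left out. Of 7 neuronal activity genes, Rgs2, a regulator of G-protein signalling, was called higher at 386, 373 and 325 across sham mice 1 to 3 and 553, 797 and 779 across ON-CR mice 4 to 6 (log2 fold change 0.96, limma adjusted p = 0.0200), and the call was lost without sham mouse 1, 2 or 3 or ON-CR mouse 6. Npas4, a factor induced almost only by neuronal calcium entry, had 0 reads in all sham mice and 3, 6 and 3 reads across ON-CR mice 4 to 6, near the floor of 3 reads.

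The signalling genes upstream of the members showed few differences at the RNA level. Of 12 genes for SRF cofactors, CREB and their partners, limma called 0, with 1 higher and 1 lower at an unadjusted p under 0.05 and a median log2 fold change of -0.00. The largest were Elk3 (0.49, adjusted p = 0.270) and Crtc2 (-0.45, adjusted p = 0.230). Limma also called 0 of 13 MAP kinase genes, with 0 higher and 3 lower at an unadjusted p under 0.05 and a median of 0.01, and the largest were Map2k7 (-0.48, adjusted p = 0.160) and Mapk3 (-0.42, adjusted p = 0.0845). Of 10 genes for ERK feedback inhibitors and ERK targets, 1 was called lower and 0 higher, and the median was -0.01. It was Etv1, an ETS factor, at 5508, 5775 and 5325 across sham mice 1 to 3 and 4171, 2761 and 3494 across ON-CR mice 4 to 6 (log2 fold change -0.69, limma adjusted p = 0.0419), and the call was lost without sham mouse 1, 2 or 3 or ON-CR mouse 6 and when libraries were scaled to their totals. Kinase activity and phosphorylation were not measured.

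Of 8 textbook targets of AP-1, 5 were called higher and 0 lower, and the median log2 fold change was 1.51. With 1 mouse left out, 3 to 5 were called, with 3 without sham mouse 2 or ON-CR mouse 6. Cd44, the hyaluronan receptor, was at 890.3, 638 and 694 across sham mice 1 to 3 and at 2237, 2182 and 2821 across ON-CR mice 4 to 6 (log2 fold change 1.71, SE 0.16, limma adjusted p = 0.000957). Ccnd1, cyclin D1 of the G1 phase, went from a mean of 1399.8 ± 171 to 3518 ± 367 (log2 fold change 1.33, limma adjusted p = 0.00129), and Timp1, an inhibitor of metalloproteinases, from 155 ± 17.8 to 506 ± 67.6 (log2 fold change 1.70, limma adjusted p = 0.00150). These 3 genes were called with each of the 6 mice left out in turn. Plau, the urokinase plasminogen activator, rose from 10.5 ± 2.30 to 60.8 ± 10.4 (log2 fold change 2.43, limma adjusted p = 0.00846), a call lost without sham mouse 2 or ON-CR mouse 6. Its receptor Plaur, named after its value was seen, had a log2 fold change of 1.82 (limma adjusted p = 0.0305) and kept its call in 1 of those 6 fits, that without ON-CR mouse 5. The metalloproteinases Mmp3, Mmp9 and Mmp13 had means of 2.21 to 16.9 in sham and 3.03 to 11.7 in ON-CR nerves, and none was called. Binding of AP-1 at these genes was not measured. Among 10 heat shock genes, which answer to protein stress, 0 were called higher and Hspb1 was called lower, at 276, 518 and 439.8 across sham mice 1 to 3 and 146, 96.3 and 121 across ON-CR mice 4 to 6 (log2 fold change -1.73, limma adjusted p = 0.00814). That call was lost without sham mouse 2, sham mouse 3 or ON-CR mouse 6, and the median of the 10 was -0.06.

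**Figure D5:**
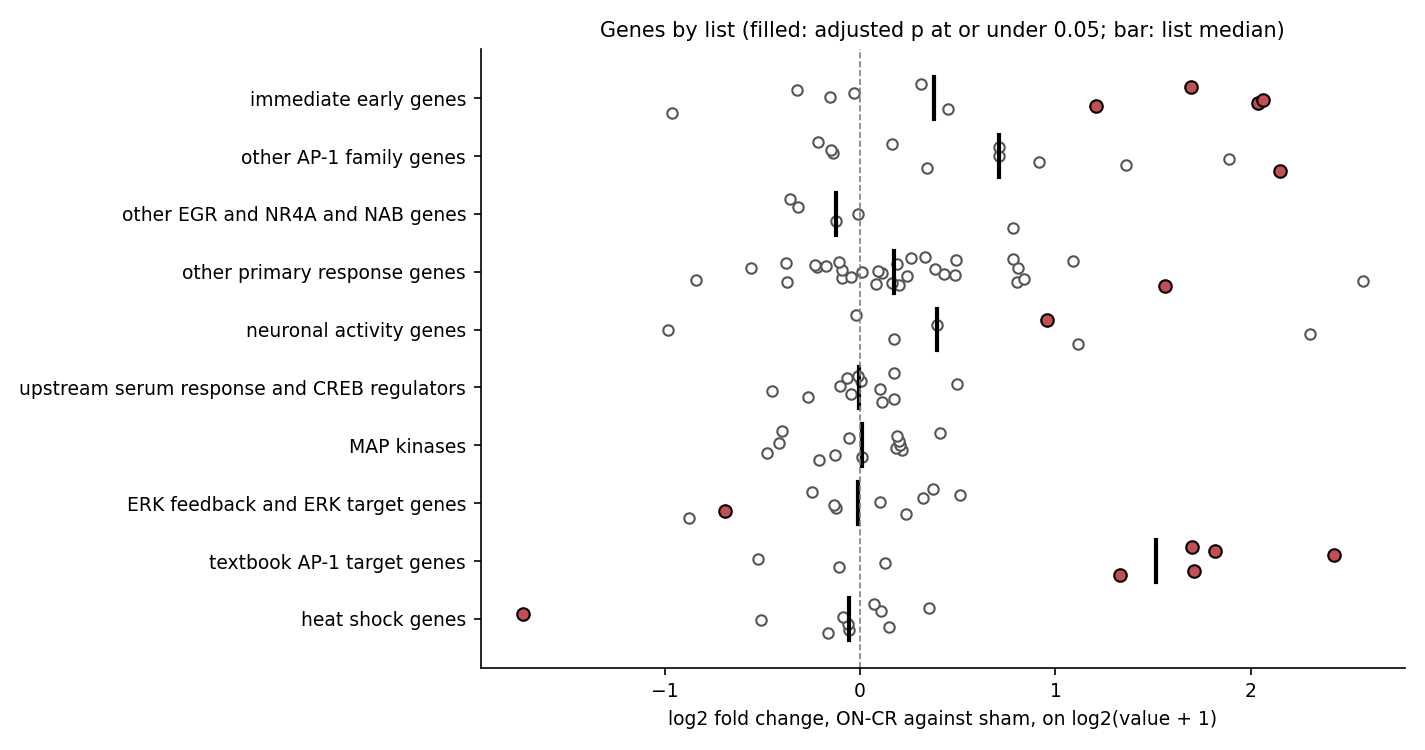
Log2 fold change of ON-CR against sham nerves (x axis, on log2(value + 1)) for each gene of the 10 lists named on the y axis, 1 point per gene, filled for a limma adjusted p at or under 0.05, with a black bar at the list median. The medians are 0.38 for the immediate early genes, 0.71 for other AP-1 family genes, 1.51 for the AP-1 targets and between -0.13 and 0.39 for the other lists.

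In bulk tissue, a change in the number of cells that express a gene and a change in its RNA per cell cannot be told apart. Of 10 microglia and macrophage markers, 5 were called higher after ON-CR (Cd68, Trem2, Tyrobp, C1qa and Aif1), and 0 lower. With 1 mouse left out, 1 to 7 were called higher, with 3 without sham mouse 1, 2 without sham mouse 2 and 1 without ON-CR mouse 6, and without the mean-variance trend 0 were called (7 at an unadjusted p under 0.05). Their sum was 16261, 14256 and 12930 across sham mice 1 to 3 and 26305, 17649 and 27368 across ON-CR mice 4 to 6, 1.64-fold higher in the mean, and 0 of the markers were at 0 in any mouse. Relative to this sum, Fos was at 11.7, 8.38 and 19.1 per 1000 units in the sham mice and at 29.4, 39.9 and 28.0 across ON-CR mice 4 to 6, 2.48-fold higher in the mean without overlap. Egr2 was at 1.24, 0.994 and 1.89 in the sham mice and 3.37, 2.97 and 4.25 in the ON-CR mice, 2.57-fold higher without overlap. On the same scale the groups overlapped for Junb, at a 1.93-fold difference of means, and for Egr1, at 1.34-fold. Jun (0.509-fold) and Arc (0.316-fold) were lower in every ON-CR mouse. Because the sum itself rose 1.64-fold without overlap, a gene with level values falls on this scale, and the groups of Jun overlapped before the division. The share of all genes whose groups separate on this scale was not computed. This sum counts 10 genes that did not move together. Cd68 and Trem2 had log2 fold changes of 1.80 and 1.66, and the homeostatic markers Tmem119 and P2ry12 had -0.27 and -0.35 and were not called. The result therefore depends on which markers enter the sum. The members were not set against Cd68, Trem2 or any other single marker. The part of microglia in the level of each member was not tested.

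Of 7 oligodendrocyte markers, 6 were called lower, and with 1 mouse left out 0 to 5 were, with 2 without sham mouse 1 and 0 without sham mouse 2 or ON-CR mouse 6, where all 7 had an unadjusted p under 0.05. Their sum was 1280060 to 1834330 in sham and 624206 to 737677 in ON-CR nerves. Of 7 astrocyte markers, S100b was called lower and 0 were called higher, and limma called 0 of them lower without sham mouse 1, sham mouse 2, ON-CR mouse 4 or ON-CR mouse 6 (1 or 2 at an unadjusted p under 0.05). Their sums were 184818 to 222870 in sham and 256798 to 291160 in ON-CR nerves, with Gfap at a log2 fold change of 0.64 (limma adjusted p = 0.0859). None of 10 neuronal markers was called, although all 10 means were higher after ON-CR, and 0 had an unadjusted p under 0.05. Their sums were 5933, 2335 and 1912 across sham mice 1 to 3 and 2276, 13361 and 3979 across ON-CR mice 4 to 6. The mouse with the highest neuronal sum, ON-CR mouse 5, held the lowest Fos, Egr1, Egr2, Nr4a1 and Btg2 of its group and the highest Fosb. Its Junb, Jun, Ier2 and Arc lay between those of the other ON-CR mice. Of the neuronal activity genes, its Rgs2 (797), Rheb (1533), Homer1 (222), Nrn1 (117), Nptx2 (16.8) and Npas4 (6 reads) were the highest of its group. Only its Bdnf lay between. This describes a single library. Of 7 Schwann cell markers, 1 was called lower, Mbp, which oligodendrocytes also express, and 0 were without sham mouse 2 or ON-CR mouse 6 (2 at an unadjusted p under 0.05). T-cell markers summed to 146 to 415 in sham and to 165 to 1101 in ON-CR nerves, with the highest sum in ON-CR mouse 6, and none was called. The part of these cell types in the members' values was not tested.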

How the data were processed

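RNA of whole optic nerves from 6 mice, 3 sham (mice 1 to 3) and 3 ON-CR (mice 4 to 6), was sequenced in bulk, and groups were taken from the sample labels. The authors aligned reads with DRAGEN to Ensembl mouse gene models, quantified them in Partek Flow 10.0 on mm10 and applied median normalization, and the study tested counts with DESeq2. The deposited values are a normalized signal per gene and not whole numbers, so limma 3.58.1 in R 4.3.3 was run on log2(value + 1) with a trend on the mean, and p-values were adjusted over 25755 genes (Benjamini-Hochberg) without a filter. P-values measure the spread between these libraries, each labelled as 1 mouse.

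Estimated reads were values divided by the most frequent low step. Of values under 200 reads, 69.4% to 71.4% per library were then whole within 0.02, so the reads served for depth, for floors (3 reads, a value of 2.66 to 3.18, counting error only) and for voom, and not for the reported test. Every gene had at least 10 estimated reads in total. Levels per kilobase used the union of exons in GENCODE annotation of GRCm38, which matched 97.2% of genes. The fit was tested on simulated data.

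The members and lists were chosen with earlier results of these data known. Named were all members, up to 4 called genes per list with the lowest adjusted p or else the 2 largest changes with a mean of at least 50, the 5 genes nearest to the members' mean profile, and Nf1, Xist and Ddx3y. Other genes, among them Npas4, Fosl1, Plaur, Prdx2, Junos and the cell type markers, were named after their values were seen. Alternatives were pseudocounts of 2 and 0.1, other scalings and filters, robust, trendless and voom fits, leaving out each mouse, and, chosen after seeing the data, a fit corrected for the GC content and length of transcripts.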

Additional observations from a re-analysis of the deposited data

How the results depend on the processing

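Fos, Junb, Egr1 and Egr2 kept their direction under all 17 alternatives. Fos was called in 15 of them (limma adjusted p from 0.00118 to 0.138), Junb in 12 (0.0130 to 0.160), Egr1 in 11 (0.0189 to 0.245) and Egr2 in 11 (0.00776 to 0.182). Of the members, 4 were called higher as reported, 0 without the mean-variance trend (4 higher and 1 lower at an unadjusted p under 0.05), and 0 to 4 with 1 mouse left out. With 1 mouse left out they numbered 1 without sham mouse 1, sham mouse 2 or ON-CR mouse 4, 3 without sham mouse 3, 4 without ON-CR mouse 5, and 0 when ON-CR mouse 6 was left out (4 higher and 1 lower at an unadjusted p under 0.05). Voom called 4. Members higher in every ON-CR mouse numbered 4, and 4 to 5 with 1 mouse left out, with Btg2 joining without sham mouse 3 and Nr4a1 without ON-CR mouse 5. Members lower in every ON-CR mouse numbered 1, and 1 to 2 with 1 mouse left out, with Fosb joining Arc without sham mouse 1 and Jun joining it without ON-CR mouse 4. Over all genes, 540 were called (250 higher, 290 lower), 7 without the trend (5 higher, 2 lower) and 67 to 854 with 1 mouse left out (39 to 489 higher, 28 to 365 lower), with the fewest without ON-CR mouse 6. Scaling to the library total called 421 higher and 195 lower and moved the median log2 fold change of all genes from 0.03 to 0.15. The uncalled Ier2 (-0.03) changed sign under that scaling (0.0945) and when corrected for GC content and transcript length (0.0676), and it ranged from -0.187 to 0.127 with 1 mouse left out, above 0 without sham mouse 3 (0.115) or ON-CR mouse 6 (0.127). The uncalled Fosb (-0.16) ranged from -0.858 to 0.535, above 0 when sham mouse 2 was dropped. The cause of these differences was not tested. No paired analysis was possible because the groups share no mouse number. With 3 mice a group and 5 to 48 reads per library, Fosb was limited by depth and spread.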
